A study of Mus musculus with 3 samples.

Results

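Binding of RXRα and RARα was described at 9 genes of heme synthesis and degradation, namely Alas1, Alad, Uros, Urod, Cpox, Ppox, Fech, Hmox1 and Blvrb, which are 9 of the 22367 protein-coding genes of GENCODE release M1 on the mouse NCBI37/mm9 genome. All 9 symbols were found in that annotation. For each gene, the RARα peaks and the RXRα and input signal were taken within 10 kb of the gene start and over the gene body, and for Alas1 within 20 kb on both sides. The genes were chosen by their place in the pathway with the RARα scores and RXRα ratios of these same libraries known, so their values are given as a description, without a test, beside those of all protein-coding genes. The chromatin was prepared from livers of 3 months old C57BL/6 males of wild type, and the labels give neither a treatment nor a genetic change. There was 1 library precipitated with an anti-RXRα antibody, 1 library of input chromatin that was not precipitated, and 1 library precipitated with an anti-RARα antibody. None of the 3 had a replicate, and whether 1 or several livers were used is not given in the sources used here. In whole liver chromatin, strong binding in few cells and weak binding in many cells cannot be told apart, and expression data were not used here, so the labelled tissue was not checked by its markers.

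Heme is built in a chain of enzymatic steps that begins and ends in the mitochondrion and passes through the cytosol. Alas1, 5-aminolevulinate synthase, catalyses the first and rate-limiting step in liver, where most of the heme is used for cytochrome P450 enzymes. Alad, Uros and Urod act in the cytosol, Cpox, Ppox and Fech in mitochondria, and Fech, ferrochelatase, inserts the iron. Hmox1, heme oxygenase 1, opens the heme ring to biliverdin, and Blvrb is a biliverdin reductase. RARα binds DNA as a dimer with RXRα, and RXRα is also the partner of other receptors such as PXR, CAR, LXR, FXR and PPARα. These dimers recognise pairs of a 6-base motif, and drug-responsive enhancers that bind PXR and CAR with RXRα are known upstream of Alas1.

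The RXRα and input values count the extended reads over each bin of 32 bp, from 9999939 and 9999292 reads, respectively, and the mean input was 0.603 per bin. An RXRα region was a run of bins in which RXRα reached 20 times input, with input set to no less than its mean and bins within 200 bp joined. An RXRα maximum was defined in the same way against the mean input alone. The maxima are listed because some of the highest RXRα signals lay on raised input. A RARα peak counted when its score was above 20. The deposited list does not say what the score measures, and it gives no depth for that library. Distances are in bp from the gene start along the direction of transcription, and negative distances are upstream.

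The DNA under the sites that the values below turn on was read from the NCBI37 genome, 5′ to 3′ on the strand of the gene. The first 4 windows are RXRα maxima upstream of Alas1, which include the 2 highest RXRα signals of the 9 genes. Capitals mark a pair of the receptor motif AGGTCA or its variants in the same direction, exact at -13623 bp and with 1 base changed in 1 of the copies at -17431 bp. No such pair was found in the windows at -15447 and -19063 bp.
Alas1 at -13623 bp, chr9:106164005-106164155, minus strand: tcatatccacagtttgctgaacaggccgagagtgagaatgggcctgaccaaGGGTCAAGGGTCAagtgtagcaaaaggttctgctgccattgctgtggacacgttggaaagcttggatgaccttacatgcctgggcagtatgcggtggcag
Alas1 at -15447 bp, chr9:106165829-106165979, minus strand: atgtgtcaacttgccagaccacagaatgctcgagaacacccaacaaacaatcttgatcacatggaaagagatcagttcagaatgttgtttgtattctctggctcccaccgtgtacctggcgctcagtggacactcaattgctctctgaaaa
Alas1 at -17431 bp, chr9:106167813-106167963, minus strand: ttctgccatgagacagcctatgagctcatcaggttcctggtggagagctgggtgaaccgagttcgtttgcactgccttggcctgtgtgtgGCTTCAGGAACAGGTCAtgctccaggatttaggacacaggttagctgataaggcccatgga
Alas1 at -19063 bp, chr9:106169445-106169595, minus strand: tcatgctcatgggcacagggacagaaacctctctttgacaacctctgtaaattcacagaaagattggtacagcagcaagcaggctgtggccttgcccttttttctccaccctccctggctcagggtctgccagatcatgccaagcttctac

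The next windows are those of the highest RXRα signal near Alad and Cpox, which had no overlapping RARα peak. Neither holds a pair of the motif.
Alad at 2792 bp, chr4:62178085-62178235, minus strand: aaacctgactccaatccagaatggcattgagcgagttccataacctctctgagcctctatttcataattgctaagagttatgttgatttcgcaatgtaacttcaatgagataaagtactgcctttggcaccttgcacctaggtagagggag
Cpox at -7617 bp, chr16:58662629-58662779, plus strand: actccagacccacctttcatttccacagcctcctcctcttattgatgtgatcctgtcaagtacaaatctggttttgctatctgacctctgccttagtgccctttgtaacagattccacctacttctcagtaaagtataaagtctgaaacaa

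The last windows are the upstream maximum of Hmox1, where capitals mark 3 copies of TGACTCAGC on the opposite strand, and the intronic maximum of Blvrb, where capitals mark a pair of the motif on the opposite strand together with an overlapping pair that has 1 base changed. The Blvrb window ends where an annotated transcript begins.
Hmox1 at -9634 bp, chr8:77607781-77607931, plus strand: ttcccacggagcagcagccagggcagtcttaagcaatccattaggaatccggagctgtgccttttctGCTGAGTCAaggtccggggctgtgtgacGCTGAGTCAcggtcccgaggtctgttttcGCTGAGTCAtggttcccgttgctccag
Blvrb at 4395 bp, chr7:28237317-28237436, plus strand: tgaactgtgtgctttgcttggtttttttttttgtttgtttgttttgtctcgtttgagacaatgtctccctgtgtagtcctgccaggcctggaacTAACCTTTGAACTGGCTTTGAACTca

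Each of the 9 heme genes had RARα peaks and RXRα regions near its start. A RARα peak with a score above 20 lay within 10 kb of the start of 9 of the 9 genes, compared to 52.2% of all protein-coding genes. RXRα regions lay within 10 kb of 9 of the 9 starts, compared to 39.8% of all genes. A RARα peak overlapped an RXRα region by at least 25% of the narrower interval at 7 of the 9 genes, compared to 23.5% of all genes, and the other two were Alad and Hmox1. Over the gene bodies, 8 of the 9 genes had a RARα peak, compared to 42.5% of all genes, and the exception was Ppox. RXRα regions lay over 7 of the 9 bodies, compared to 33.9% of all genes, and the exceptions were Urod and Hmox1. Since the genes were listed with their binding known, these counts are no evidence that heme genes differ from other genes.

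The levels ran above those of the median gene in the same libraries. The highest RARα score within 10 kb had a median of 70.0 over the 9 heme genes, with a range of 45 to 246, and a median of 23.0 over all genes. The highest RXRα ratio over input had a median of 45, with a range of 30 to 99.6, and a median of 14.9 over all genes. This median depended on the window and the input, with 21.6 within 1 kb of the start and 83.0 against the mean input alone. RXRα enrichment was the mean RXRα signal over the mean input of the same window, with this input set to no less than the genome mean. Within 1 kb of the start it had a median of 2.74, with a range of 1.64 to 4.14, and 1.36 over all genes. Over the gene body it had a median of 1.80 and 0.842, respectively. RARα peaks of any score covered a median of 9.33% of the bodies of the 9 genes and 1.84% over all genes. For each of these measures 9 of the 9 genes lay above the median of all genes. The genes were ranked in a different order by each measure, with Alas1 first by RARα score, Blvrb first by RXRα ratio over the input of the same bin and Alad first by RXRα signal over the body.

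**Figure D1:**
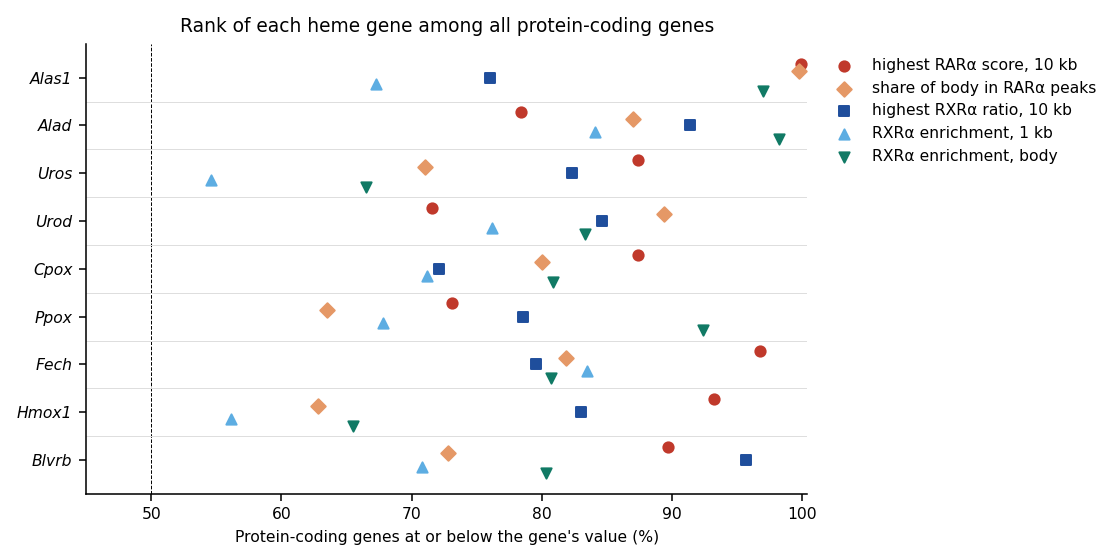
Share of all protein-coding genes at or below each heme gene's value (x axis, percent), for the highest RARα score and the highest RXRα ratio within 10 kb of the start, the share of the body in RARα peaks, and the RXRα enrichment within 1 kb of the start and over the body, with 1 point per gene and measure. Alas1 reaches 99.9% for the RARα score but 67.3% for the RXRα enrichment at its start, and every point lies to the right of the dashed line at 50%.

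Alas1 (ENSMUSG00000032786.8, chromosome 9, 106135786 to 106150457, minus strand) carried RARα over almost its whole length. A run of 24 RARα peaks, with gaps of at most 119 bp, extended over 18240 bp from 106132461 to 106150700 on both sides of the annotated gene. RARα peaks covered 98.1% of the Alas1 body, and 53 of all genes had a higher share. The highest score was 246 at 282 bp, in the untranslated region, and only 20 of the 143280 RARα peaks of the list scored as high or higher. Along the run, 21 of the 24 peaks scored above 20 and 8 scored above 100. The median score was 74.0. The peaks at 2732 and 12502 bp both reached 139, while the 9 peaks from 5942 to 10022 bp scored 44 to 76. The run thus had its highest score at the start, further high scores in the 5′ and 3′ parts of the gene and lower scores between them.

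RXRα over the same run was raised as a whole but had no high maximum. RXRα gave 1140 reads in the run and input gave 227, so the ratio was 5.02 (95% interval 4.35 to 5.82). All intervals given here are exact binomial intervals that cover counting error only. Over the Alas1 body alone the ratio was 4.36 (95% interval 3.68 to 5.20), a value that 97.0% of all genes did not exceed. The 13 RXRα maxima of the run had highest signals of 14 to 42, with a median of 18, where the median over all 60940 maxima of the genome was 26. The RXRα regions of the run lay at 681 and 1961 bp with a ratio of 23.2, at 7225 bp with 34.8, at 11929 bp with 54.8, at 12889 bp with 24.9 and, beyond the 3′ end, at 16041 bp with 33.0, at 17241 bp with 54.8 and at 17865 bp with 28.2. The last of these overlapped a RARα peak with a score of 12, and each of the others overlapped a RARα peak with a score above 20. The RXRα region at 12889 bp and those beyond the 3′ end were closer to the start of Tlr9, a receptor for microbial DNA, than to that of Alas1.

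The upstream side of Alas1 had the opposite make-up. From 15 to 20 kb upstream, RXRα gave 957 reads and input gave 58, for a ratio of 16.5 (95% interval 12.7 to 21.9), compared to 1.83 (95% interval 1.38 to 2.45) from 1 to 15 kb upstream. Of these 957 reads, 284, 288 and 311 lay in 3 narrow maxima, whose windows are printed above. At -15447 bp the RXRα signal reached 132 against an input of 3. At -17431 bp it reached 215 against an input of 1, a ratio of 215 that only 178 of the 42117 RXRα regions exceeded. At -19063 bp it reached 178 against an input of 2, and the region around it had a ratio of 176, which 404 regions exceeded. A ratio as high as 215 within 20 kb of the start was reached at 127 of the 22367 genes. These ratios are those of single bins. Over the reads of the whole maximum, the ratio was 21.8 (95% interval 12.6 to 41.5) at -15447 bp. It was 41.1 (95% interval 19.7 to 103) at -17431 bp and 38.9 (95% interval 19.5 to 90.8) at -19063 bp. The 3 sites carried RARα peaks with scores of 23, 17 and 22, so that the one with the highest RXRα signal fell below the RARα threshold. The 9 RARα peaks of the upstream side scored 5 to 23 with a median of 16.0, and none of them reached the median of the run over the gene. The sites at -17431 and -19063 bp were closer to the start of Poc1a, a centriole gene, at 15504 and 13872 bp, than to that of Alas1. A weaker maximum at -13623 bp, with a signal of 37 against an input of 2, holds the exact pair of the motif and had no RARα peak.

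**Figure D2:**
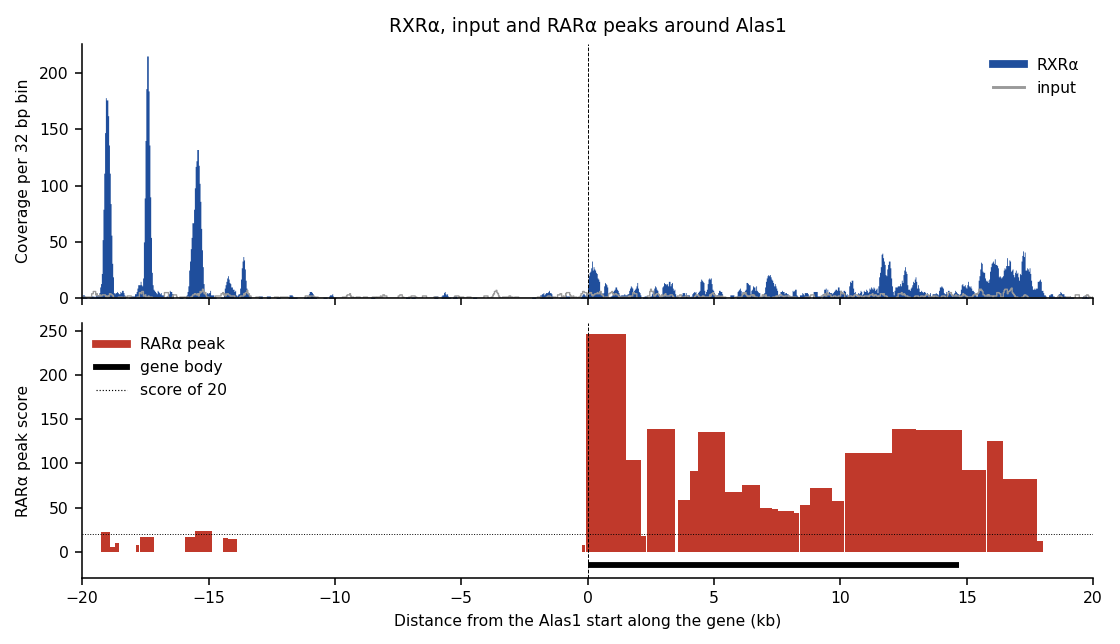
RXRα (blue) and input (grey) coverage per 32 bp bin (upper panel) and RARα peaks drawn as bars of their width with the score as height (lower panel) within 20 kb of the Alas1 start, with distance along the gene on the x axis in kb, upstream to the left. The RXRα signal is highest in the upstream sites, at 132, 215 and 178, while the RARα scores there are 23 or less and rise to 246 from the start onwards over the gene body (black bar).

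Alad (ENSMUSG00000028393.4, chromosome 4, 62170203 to 62180952, minus strand), which joins molecules of aminolevulinic acid, had RARα at its start and its strongest RXRα site inside the gene. The RARα peaks above the threshold had scores of 54 at 7 bp and 33 at 917 bp. The RXRα regions lay in an intron at 3576 bp, with a ratio of 23.2, and in a coding exon at 9784 bp, with a ratio of 71.4, and neither overlapped a RARα peak. The region at 9784 bp was closer to the start of Hdhd3, at 6667 bp, than to that of Alad. The highest RXRα signal of Alad was 136 at 2792 bp in an intron. Its input was 8, so the ratio of 17.0 missed the 20-fold threshold, and no RARα peak overlapped it. The signal at the RARα peak of the start was 32 against an input of 3, and that at the intronic RARα peak was 54 against an input of 4. RXRα and RARα thus met at Alad only at ratios below 20. Over its body, RXRα was 5.21 times input (95% interval 4.15 to 6.60), a value that 98.2% of all genes did not exceed.

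Uros (ENSMUSG00000030979.6, chromosome 7, 140877926 to 140901755, minus strand), uroporphyrinogen III synthase, had RARα peaks with scores of 70 at 1080 bp and 35 at 660 bp. Both were closer to the start of Bccip on the opposite strand, at 341 and 79 bp, than to the annotated start of Uros, so they cannot be told apart from peaks of Bccip. The higher one overlapped an RXRα region at 1243 bp with a ratio of 25. The RXRα region with the highest ratio of Uros, 45, lay at -5509 bp in an intron of Bccip and had no RARα peak. Around the annotated start itself RXRα was close to input, with 29 and 18 reads and a ratio of 1.61 (95% interval 0.865 to 3.08). Uros was the only one of the 9 genes whose interval at the start included 1. The start used was the outermost one. Uros has 7 annotated coding transcripts, the last of which starts at 7456 bp, so these values describe the outermost start only.

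Urod (ENSMUSG00000028684.8, chromosome 4, 116662570 to 116667018, minus strand), uroporphyrinogen decarboxylase, had 4 RARα peaks above the threshold within 10 kb. Their scores were 32 at 13 bp, 23 at 2883 bp, 31 at 7388 bp and 45 at -1012 bp. The highest of these lay in the neighbour Hectd3, 108 bp from its start, and overlapped an RXRα region at -838 bp with a ratio of 21.6. The RARα peak at 7388 bp overlapped an RXRα region with a ratio of 24.9 in a coding exon of Zswim5. The strongest RXRα region, with a ratio of 50 at -1478 bp, was also in Hectd3 and overlapped a RARα peak with a score of 18. At the Urod start, the RXRα signal of 18 against an input of 3 formed a maximum but no region. The RXRα regions near Urod therefore all lay outside the gene, and the 2 on the upstream side were closer to the start of Hectd3.

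Cpox (ENSMUSG00000022742.5, chromosome 16, 58670321 to 58680504, plus strand), coproporphyrinogen oxidase, had its RARα at the start and its highest RXRα signal far upstream. The RARα peak at 29 bp had a score of 70 and overlapped an RXRα region with a ratio of 30. A second RARα peak, with a score of 39 at -6946 bp, lay between the RXRα maxima at -7617 and -6145 bp, whose signals were 140 and 101. The inputs there were 9 and 6, and the RXRα regions within them had ratios of 20.7 and 25.7. Neither maximum overlapped a RARα peak, and under the RARα peak between them RXRα was 1.89 times input. Further RXRα regions lay at -993 bp, with a ratio of 25, and at 1551 bp, with 29.0. The start, with a signal of 33 against an input of 3, thus had the highest RARα score, while the upstream maxima had the higher signal.

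Ppox (ENSMUSG00000062729.5, chromosome 1, 173206121 to 173211317, minus strand), protoporphyrinogen oxidase, had a single RXRα maximum, the fewest of the 9 genes, which held a region at 53 bp with a ratio of 38.2. This region overlapped a RARα peak with a score of 28 at -93 bp, and a further RARα peak with a score of 30 lay at -668 bp on input-level RXRα (0.830 times input). The highest RARα score within 10 kb, 47 at -6788 bp, lay 17 bp from the start of Usp21, a deubiquitinase gene. Within 1 kb of the start, 30 was the lowest top score of the 9 genes.

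Fech (ENSMUSG00000024588.7, chromosome 18, 64616204 to 64648720, minus strand) had RARα and RXRα together at its start. The RARα peak at 25 bp had a score of 115, the highest after Alas1, and overlapped an RXRα region with a ratio of 39.8, the highest of the gene. A second co-localized pair lay in an intron at 9375 bp, with a RARα score of 38 and an RXRα ratio of 28.2. The RARα peak at 22160 bp, with a score of 23, held 2 RXRα and 5 input reads. The RXRα regions at 4448, 12064 and 15200 bp, with ratios of 20.5, 33.2 and 34.0, had no overlapping RARα peak. The one at -7872 bp, with 21.6, met a RARα peak with a score of 10, but by less than 25% of the narrower interval. Along Fech, RARα above the threshold was thus limited to 3 places, while RXRα regions lay at 6.

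**Figure D3:**
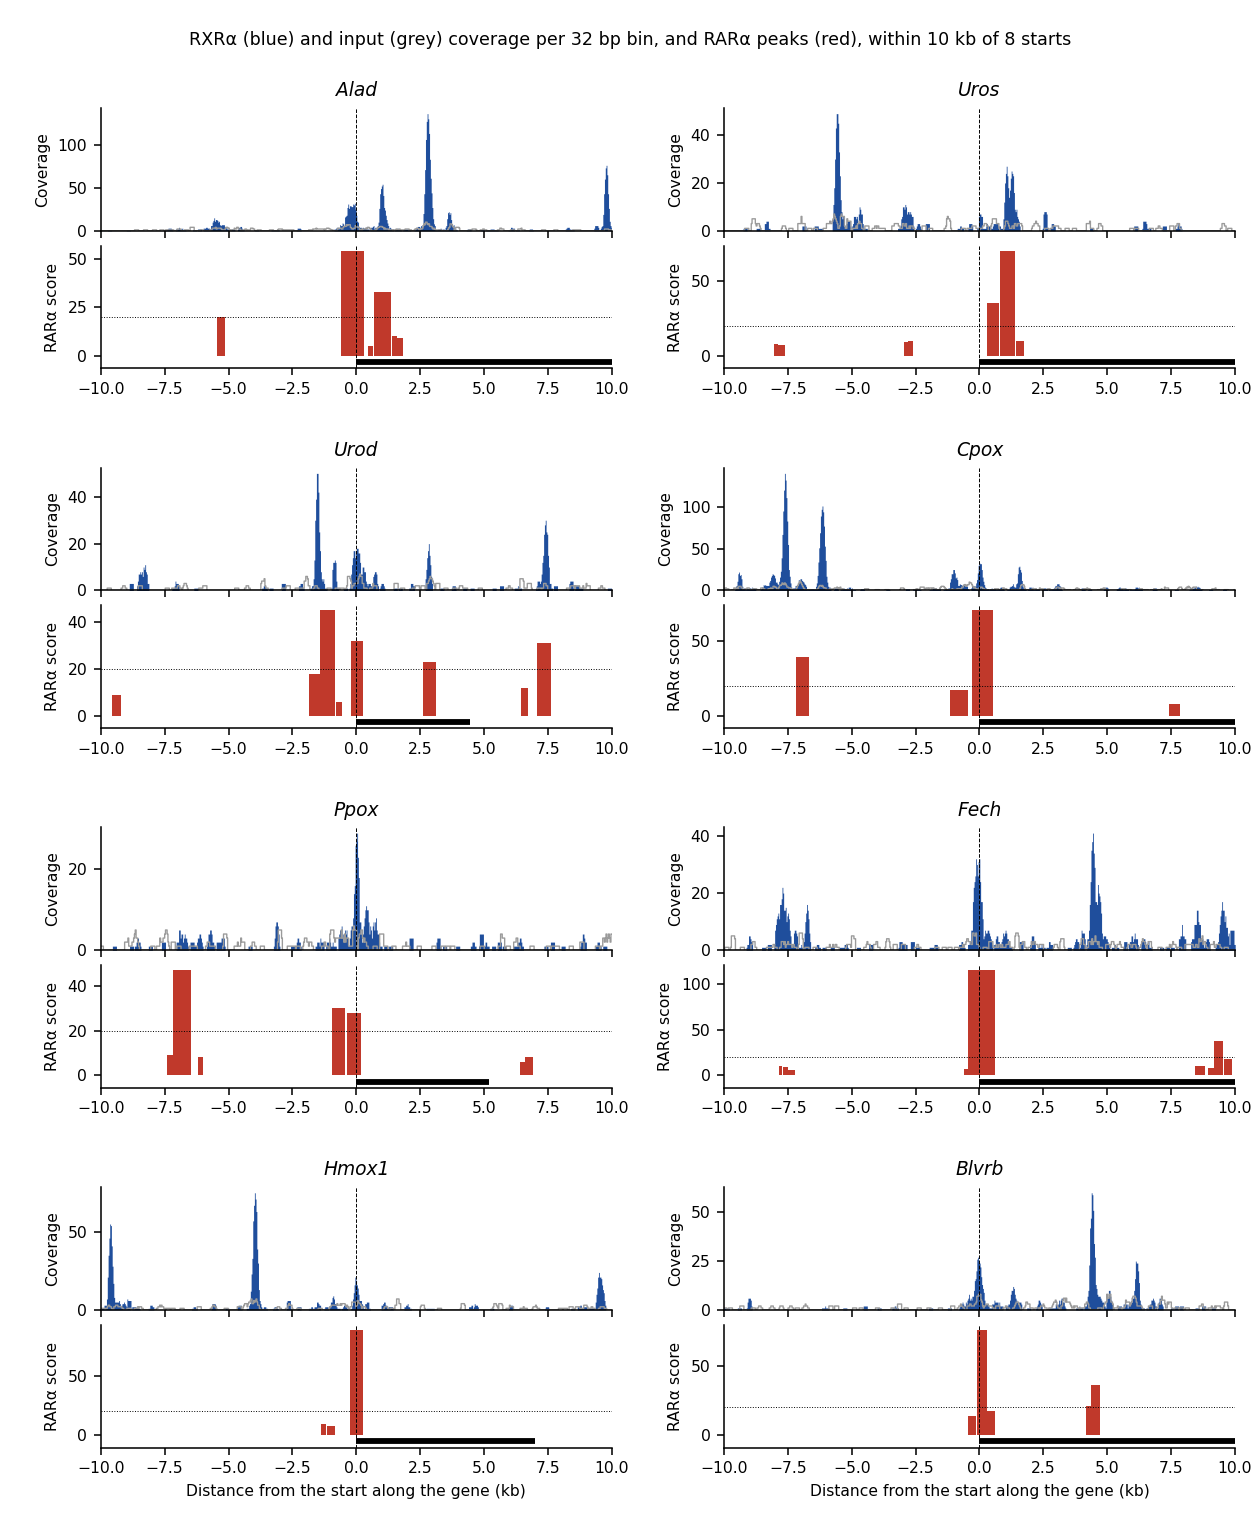
RXRα (blue) and input (grey) coverage per 32 bp bin and RARα peaks (red bars, score as height, dotted line at a score of 20) within 10 kb of the starts of the other 8 genes, with distance along the gene on the x axis in kb and the gene body as a black bar. Each pair of panels has its own vertical scale. RARα is highest within 1080 bp of the start, except at Ppox and Urod, whose highest bars, 47 and 45, lie at the neighbours Usp21 and Hectd3, while the highest RXRα signal lies away from the start in 7 of the 8 genes, the exception being Ppox.

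Hmox1 (ENSMUSG00000005413.6, chromosome 8, 77617490 to 77624495, plus strand) had RARα and RXRα at different places. Its 1 RARα peak above the threshold had a score of 89 at 35 bp, which 93.2% of all genes did not exceed. RXRα at that peak was 2.42 times input, with 29 and 12 reads, and the signal of the start reached 21 against an input of 5. The highest RXRα signals lay at -3970 bp, with 75 against an input of 5, and at -9634 bp, with 55 against an input of 2. The region at the latter site had a ratio of 46.5, and another at 9486 bp, which was closer to the start of Mcm5, had 34.8. None of these sites overlapped a RARα peak. The printed window at -9634 bp holds 3 copies of TGACTCAGC, the letters of the stress-responsive element bound by NRF2 and BACH1 with small MAF proteins, and upstream enhancers with such elements are known for this gene.

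Blvrb (ENSMUSG00000040466.9, chromosome 7, 28232997 to 28251163, plus strand) had the highest RXRα ratio of the 9 genes within 10 kb of a start, with the input of the same bin as reference. Against the mean input alone it was exceeded by Cpox, Alad and Hmox1, with ratios of 232, 226 and 124. Against the mean input over 1 kb it was exceeded by Alad, with 71.7 compared to 55.0 at Blvrb. The RARα peak of its start had a score of 76 at 98 bp, with RXRα at 3.23 times input and no RXRα region. At 4395 bp the RXRα signal was 60 and the input 0, and the region held 71 RXRα reads. With the input set to its mean the ratio was 99.6, which 95.7% of all genes did not exceed, and the 71 reads against 0 set a lower 95% limit of 18.8. This region overlapped RARα peaks with scores of 21 at 4303 bp and 36 at 4528 bp. The latter held 66 RXRα reads and 1 input read, and with the input set to its genome mean the ratio was 45.8. An alternative transcript of Blvrb is annotated to start at 4440 bp, so the site lies beside a second start of the gene.

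Taken over the 9 genes, RXRα signal and RARα score did not peak at the same sites. The genes had 54 RXRα maxima, and an overlap was again at least 25% of the narrower interval. Of these maxima, 29 overlapped a RARα peak with a score above 20, 7 overlapped only a weaker one and 18 overlapped none. Over all 60940 maxima of the genome these shares were 26.6%, 25% and 48.5%. Without Alas1, 15 of 36 maxima overlapped a RARα peak above the threshold. Of the 6 maxima with a signal of 100 or more, 3 belonged to Alas1 and the others to Alad and Cpox. Only 2 of these 6 overlapped a RARα peak above the threshold, with scores of 22 and 23, and 3 overlapped none. Of the 3492 maxima of the genome with such a signal, 48.7% overlapped a RARα peak above the threshold and 26.3% none. The 10 maxima with a RARα score above 100 had a signal of at most 42, and 9 of these 10 belonged to the Alas1 run and the other to Fech. Of the 922 maxima of the genome with such a score, 22.2% had a signal above 42. Of all 60940 maxima, 71.6% had a signal of 42 or less, so this limit is not particular to high RARα scores. Within 1 kb of a start, 9 of 10 maxima overlapped a RARα peak above the threshold, compared to 20 of 44 farther away and, without Alas1, 7 of 27. Over the genome, by distance to the nearest start of any gene, the share was 70.8% within 1 kb and 24.8% at 1 to 10 kb. At all distances above 1 kb it was 19.2%. The 54 maxima were split by distance to the start of their own heme gene, so the 2 splits are not measured alike. The median signal of the 54 maxima was 28 near the starts and 26 farther away. These points share the same libraries, and those of Alas1 form 18 of the 54.

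**Figure D4:**
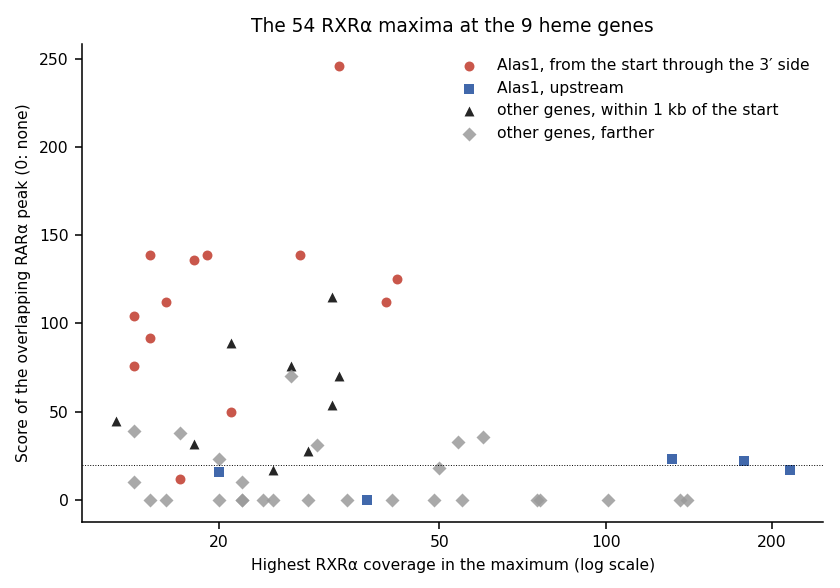
Score of the overlapping RARα peak (y axis, 0 where there is none) against the highest RXRα coverage (x axis, log scale) for the 54 RXRα maxima, with 1 point per maximum. The 6 maxima with a coverage of 100 or more have scores of 23 or less, and the 10 with a score above 100, of which 9 belong to Alas1, have a coverage of at most 42. Over the genome, 22.2% of the maxima with a score above 100 have a coverage above 42, and 71.6% of all maxima have a coverage of 42 or less.

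RARα lay close to the start in most of the genes. A RARα summit with a score above 20 was within 100 bp of the start in 7 of the 9 genes, compared to 24.2% of all genes. The exceptions were Alas1, with its summit at 282 bp, and Uros. Both have further annotated transcript starts, the last at 396 bp in Alas1 and at 7456 bp in Uros. Input was raised at the same places. Within 1 kb of the start, input was 2.28 times its genome mean at Uros and 5.06 times at Alas1, with a median of 3.61 over the 9 genes and 1.29 over all genes. RXRα values are given over this input, whereas no input was set against the RARα scores here, and the part of raised input in the RARα scores was not tested.

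The promoters had the G and C content of the median gene and somewhat more CpG. From 250 bp before to 50 bp after the start, the G and C content had a median of 54.3% over the 9 genes and 55.0% over all genes, with a range from 44.3% at Uros to 71.3% at Alad. The ratio of observed to expected CpG had a median of 0.687, and 0.534 over all genes. It was 0.344 at the outermost annotated start of Uros, the only one of the 9 genes below the median of all genes, and 0.871 at Alad.

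Exact pairs of the receptor motif were rare under the RXRα sites, both at the 9 genes and over the genome. The motif was AGGTCA or its variants GGGTCA as well as AGTTCA, and also GGTTCA, searched on both strands, in pairs of the same direction with 0 to 8 bases between, inverted pairs with 0 or 1 and everted pairs with 6 to 8. An exact pair lay in the window around the highest bin of 1 of the 33 RXRα regions (3.03%), compared to 5.07% of the 15094 regions within 10 kb of any gene start. Over the maxima it lay in 2 of 54 windows (3.70%), compared to 5.47% of all 60940 maxima and 1.11% of windows 1 kb away from them. Counts of 1 and 2 are too low to show a difference from the shares of the genome. The 2 were the pair with 1 base between at Alas1, GGGTCAAGGGTCA, and the pair with 5 bases between at Blvrb, AGTTCAAAGCCAGTTCA. At least 1 copy of the motif lay in 30 of the 54 windows, compared to 63.8% of all maxima. Of the 43 windows at RARα summits with a score above 20, 0 held a pair, compared to 1.27% of all 32946 such summits, a share too low for 43 windows to show a difference. A search with at most 1 base changed in 1 of the copies and 1, 4 or 5 bases between was added after the exact one. Such a pair lay in the windows of 7 of the 33 RXRα regions, compared to 14.8% of the regions within 10 kb of any gene start. Over the maxima, 5 of the 54 windows held a pair, compared to 16.4% of all maxima. The windows at -13623 bp of Alas1 and at Blvrb, with their exact pairs, were among these 5. Among the others was GCTTCAGGAACAGGTCA at the site of Alas1 with a signal of 215. The stress-responsive letters TGACNNNGC, also added afterwards, were present in 9 of the 54 windows, compared to 11.1% of all maxima, and a match in a window is a description and not a binding site.

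Other heme genes were read in the same way from lists of other enzymes, transport and scavenging, regulators, and bilirubin disposal. Of these 32 genes, 26 (81.2%) had a RARα peak within 10 kb, 21 (65.6%) had an RXRα region and 19 (59.4%) had both at the same place. Over all protein-coding genes these shares were 52.2%, 39.8% and 23.5%. The lists were also set with earlier results of these data known. Their counts are therefore no evidence that heme genes differ from other genes. Among the 3 other enzymes, 2 had a RARα peak and 0 an RXRα region. Hmox2, heme oxygenase 2, had the highest RARα score of this list, 109, and the highest RXRα ratio, 19.0. Alas2, the synthase of red cell precursors, lacked both, with values of 13 and 18.3. Among the 16 genes of transport and scavenging, 13 had RARα and 10 had RXRα. The highest RXRα ratio of this list was 287 at Lrp1, the receptor for heme bound to hemopexin, and the highest RARα score was 136 at Hpx, hemopexin itself, whose body was covered by RARα peaks to 96.2%. Cd163 and Abcg2 lacked both within 10 kb. Over the body of Abcg2, however, lay 1 RARα peak and 6 RXRα regions. Cd163 is the haemoglobin scavenger receptor of macrophages and Abcg2 exports porphyrins.

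Among the 9 regulators, 8 had a RARα peak and 7 an RXRα region, compared to 52.2% and 39.8% of all genes. Nfe2l2, which encodes NRF2, had the highest RXRα ratio, 151, and Foxo1 the highest RARα score, 126. Ppargc1a, a coactivator of Alas1 in fasting, lacked both within 10 kb, although 3 RARα peaks and 5 RXRα regions lay over its body. All of the 4 genes of bilirubin disposal had an RXRα region and 3 had a RARα peak, which Abcc3 lacked with a highest score of 11. Ugt1a1, which conjugates bilirubin, had the highest RXRα ratio at 156, and Abcc2, which exports the conjugate into bile, the highest RARα score at 88.

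**Figure D5:**
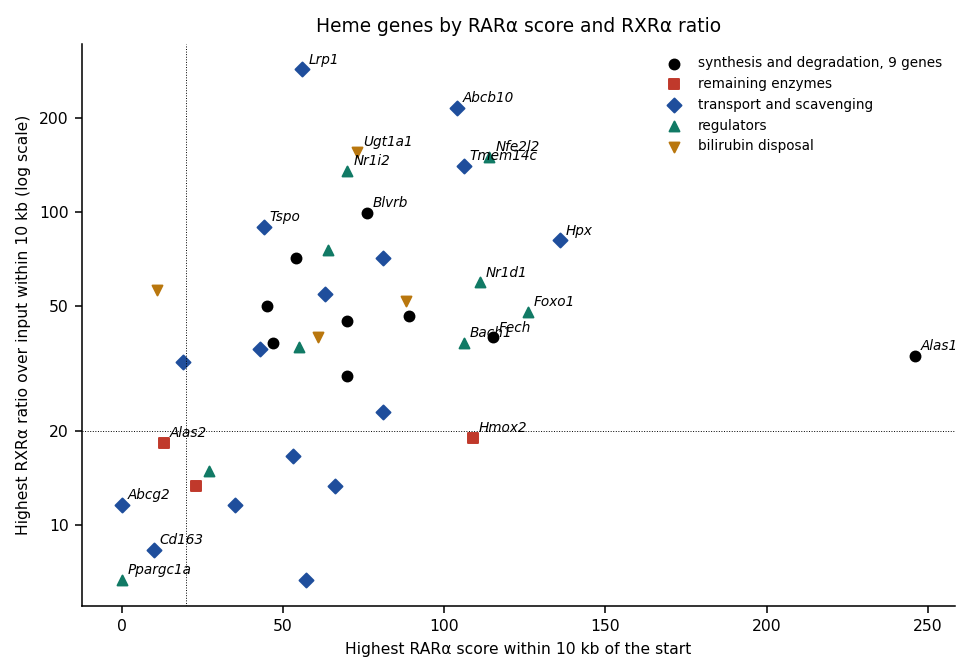
Highest RXRα ratio over input (y axis, log scale) against the highest RARα score (x axis) within 10 kb of the start for the 9 genes of synthesis and degradation and the 32 genes of the other lists, with 1 point per gene and dotted lines at a score and a ratio of 20. Alas1, at 246, and Hpx, at 136, have the highest RARα scores, Lrp1 has the highest RXRα ratio at 287, and Alas2, Cd163, Abcg2 and Ppargc1a lie below both lines.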

How the data were processed

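Chromatin immunoprecipitation sequencing data of 3 mouse liver libraries were used, 1 each for RXRα, input and RARα. Per the submitters' processing notes, reads were processed with CASAVA 1.4 and Bowtie, and RARα peaks were called with MACS. The RXRα and input files deposited by the authors hold a signal, the whole-number count of extended reads over bins of 32 bp. For RARα the authors deposited a list with a peak score, a width and a false discovery rate in percent, which was not used as a filter. The file headers name mm9, and all RARα peaks lay within the NCBI37 chromosomes, so GENCODE release M1 was used. The paper names mm10 for the alignment.

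Both tracks were scaled to the same total. The thresholds (20-fold, a score of 20, 10 kb, 25% overlap) follow the study's methods. Every peak or region within the window was counted, whichever gene start was nearest. Reads were signal sums divided by 5 and rounded, so read ratios differ slightly from ratios of mean signal. Motifs were searched in 201 bp. With 1 library per antibody no test was run. The 9 genes, the other heme lists and the settings were chosen with earlier results of these data known. Named were all 9 genes, every Alas1 peak and region as values or ranges, the highest site and each co-localized pair elsewhere, and per list the highest gene and those lacking both. Region calling, overlap and motif search were tested on simulated data. Of the listed symbols, 2 (Flvcr1 and Flvcr2) were matched through RefSeq synonyms. The tools were pysam 0.24.0, scipy 1.17.1, pandas 2.3.3, numpy 2.4.6 and matplotlib 3.10.9 under Python 3.11.15. An item of the enzyme list is not reported here. Left out were the receptors of other studies and gene expression, which were not analysed here.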

Additional observations from a re-analysis of the deposited data

How the results depend on the processing

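No paired analysis was possible because each group holds 1 library. Of 61 alternatives over the counts and medians, 50 left the value within 1.5 times, and of 108 over values of single genes 81 did so. Of the other single values, 23 were RXRα ratios and 4 RARα scores. The genes with a RARα peak within 10 kb were 2 with scores above 100, and those with one over the body were also 2 (4.86% and 3.08% of all genes). Co-localized genes were 4 with scores above 50 and 2 with scores above 100 (10.9% and 2.40% of all genes). They were 4 at 30 times input and 4 within 1 kb (14.9% and 15.8% of all genes). Genes with an RXRα region were 5 within 1 kb, without Alad, Uros, Hmox1 and Blvrb, compared to 21.6% of all genes. The median highest RARα score was 76.0 within 20 kb. The median highest RXRα ratio was 21.6 within 1 kb and 83.0 against the mean input alone. Against the mean input alone, or at 5 times input, co-localization was found at 9 of the 9 genes. These settings also raised its share over all genes, from 23.5% to 36.2% and 47.7%, respectively. When each peak counted only for its nearest gene start, Uros lost its RARα peaks. The settings for the motif pairs were added after seeing the data. RXRα regions with a pair were 7 of 33 with at most 1 base changed, compared to 14.8% of regions within 10 kb of any gene start. RXRα maxima with an exact pair were 2 of 54, compared to 5.47% of all maxima. The number of reads limits single ratios: where the input is 0 or 1, the ratio has a wide interval.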
